A study of Xenopus laevis x Xenopus muelleri with 6 samples.

Results

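The genes described here belong to steroid hormone synthesis. They are 10 genes of the frog Xenopus laevis: the enzyme genes cyp17a1.L, srd5a1.S, srd5a3.S and hsd3b7.L, the electron carrier genes fdx1.L and fdxr.L, the cholesterol carrier genes stard3.S and stard4.L, and the regulator copies nr5a2.L and nr5a2.S. A member was any probe set whose only symbol in the platform's gene table was one of these, which gave 11 of 11485 probe sets, and each of the 10 genes had at least 1. cyp17a1.L had a pair of them, here called A and B in the order of the platform's names. X. laevis keeps many genes as an L copy and an S copy, one from each ancestral genome, and nr5a2 was the only gene of the set measured for both.

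RNA came from testes of sexually mature hybrid frogs, with 3 sex-reversed and 3 normal testis samples on 1 array each. In both groups the mother was X. laevis of the Cape of South Africa and the father X. muelleri of Swaziland, and the frogs were grown from eggs under equal light and dark periods. No genetic sex, age or agent of reversal is stated for the sex-reversed frogs in the sources used here. The titles number the samples as biological replicates without saying that each is a separate animal, so the p-values speak only of the spread between these samples.

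Steroid hormones are made from cholesterol. Carriers of the START family bring cholesterol to membranes, and a mitochondrial cytochrome P450 cuts its side chain with electrons that pass from NADPH through ferredoxin reductase and ferredoxin. Enzymes of the 3-beta-hydroxysteroid dehydrogenase family and CYP17A1 then lead towards androgens, and steroid reductases can turn testosterone into dihydrotestosterone. In the vertebrate testis this work is done mainly by Leydig cells, which lie between the tubules under the control of pituitary luteinizing hormone and of nuclear receptors of the NR5A family.

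Group means of the 9 probe sets of genes other than cyp17a1.L lay within 0.49 log2 units of each other in sex-reversed and normal testis, and cyp17a1.L stood apart through 1 array. Its probe sets were among the brighter ones of the table on 5 arrays and lay near the array median in sex-reversed replicate 3. No member passed the test of sex-reversed against normal testis (limma over all 11485 probe sets, Benjamini-Hochberg adjusted p of 0.05). The share of all probe sets that passed was 0%. At an unadjusted p of 0.05, 0 of the 11 member probe sets passed in limma and 0 without variance moderation, beside 4.42% of all probe sets in limma. The groups overlapped in each of the 11, so that 0 were fully separated, beside 9.63% of all probe sets. Means were higher in sex-reversed testis for 4 member probe sets and lower for 7, with a median log2 difference of -0.17, beside a median of 0.01 over the whole table. Values are on the log2 scale, and a log2 difference of 1 is a doubling.

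The absence of a call leaves room for differences. The 95% interval stayed inside a 2-fold change both ways for 6 of the 11 member probe sets, beside 62.5% of the table. These 6 were srd5a1.S, stard4.L, fdx1.L, fdxr.L, hsd3b7.L and nr5a2.S. For srd5a3.S and stard3.S a fall of more than 2-fold remained inside the interval, for nr5a2.L a rise of more than 2-fold, and for cyp17a1.L both.

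**Figure D1:**
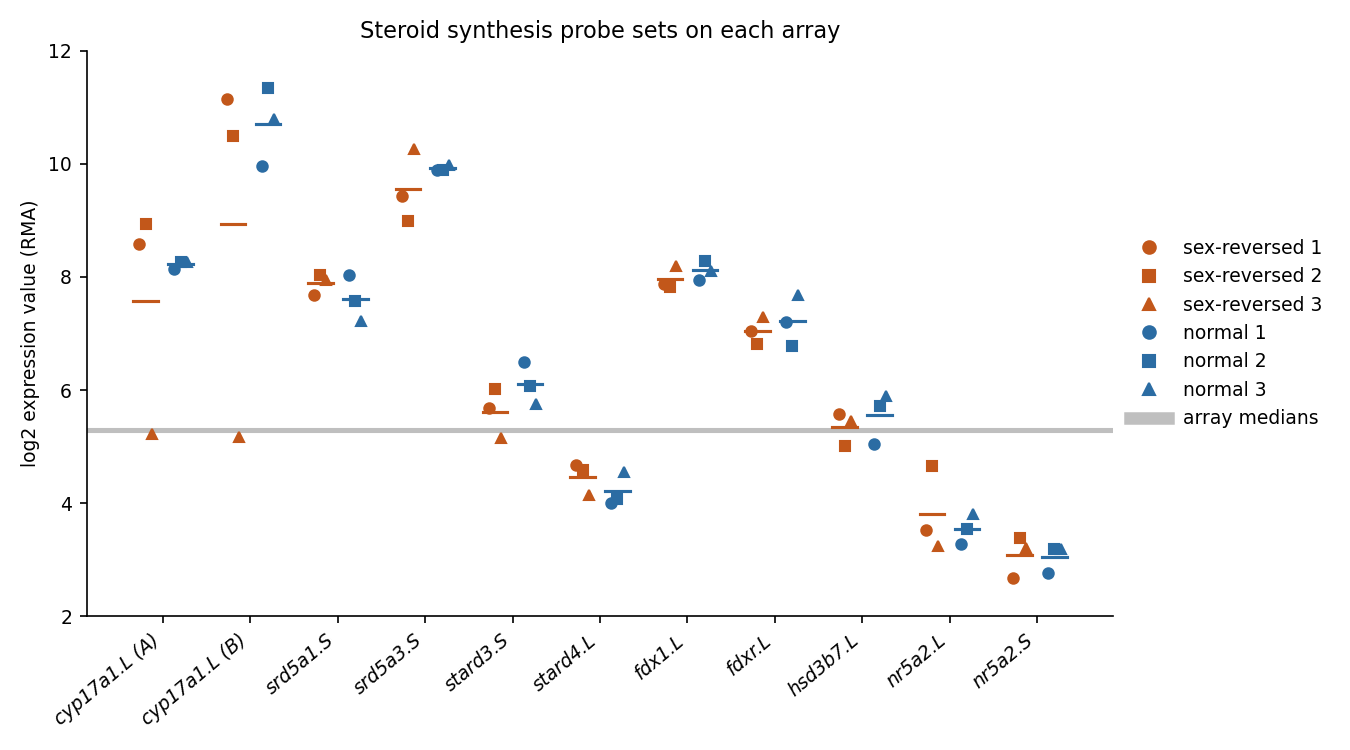
Log2 expression value (vertical axis) of each of the 11 probe sets on every array, with sex-reversed testis on the left of each pair in orange and normal testis on the right in blue. Marker shape gives the replicate number, short lines are group means (n = 3) and the grey band spans the array medians. Both cyp17a1.L probe sets lie near the band in sex-reversed replicate 3, and the groups overlap for every probe set.

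Set by their mean over the 6 arrays, the probe sets ran from cyp17a1.L B at 9.82 and srd5a3.S at 9.74 down to nr5a2.L at 3.68 and nr5a2.S at 3.06. A probe set's brightness depends on its probes as well as on its RNA, so this order and the ranks below describe signal and do not measure one transcript against another. Neighbours in the order differed by less than their spread in several places: fdx1.L was above cyp17a1.L A on only 2 of 6 arrays, and stard3.S was above hsd3b7.L on 4. By contrast srd5a3.S lay above fdx1.L, fdxr.L above stard3.S, hsd3b7.L above stard4.L and nr5a2.L above nr5a2.S on all 6.

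The enzyme CYP17A1 carries out the hydroxylation and the side chain cleavage that turn pregnenolone and progesterone into androgens, and its gene is widely used as a marker of Leydig and other steroid-making cells. Probe set B read 11.14, 10.49 and 5.17 in sex-reversed testis, against 9.96, 11.34 and 10.79 in normal testis. Probe set A read 8.58, 8.93 and 5.23 in sex-reversed testis, against 8.14, 8.26 and 8.26 in normal testis. In both, sex-reversed replicate 3 was the lowest of the 6 arrays by a wide gap, and the other sex-reversed arrays lay among the normal ones for B and above them for A.

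Sex-reversed replicate 3 lay below the mean of the other 5 arrays by 3.20 for A and 5.58 for B on the log2 scale, or 9.19-fold and 47.8-fold. The SD of those 5 arrays was 0.32 for A and 0.55 for B. Within its array, B stood at percentile 99.0, 98.1 and 48.2 in sex-reversed testis, against 96.6, 99.1 and 98.5 in normal testis. For A the percentiles were 90.3, 92.3 and 49.3 in sex-reversed testis, against 86.6, 87.8 and 87.7 in normal testis. The signal of this gene, at or above percentile 86.6 elsewhere, sat at the middle of the table on 1 array. In whole testis RNA, fewer cells of a type and less RNA per cell cannot be told apart. The values of single probes were not analysed here, so a fault of the array or its probes and a sequence difference under the probes were not tested.

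The group difference of cyp17a1.L therefore had a wide interval. The log2 difference of B was -1.76 with a 95% interval of -5.09 to 1.56 (SE 1.42, limma adjusted p = 0.997). Group means were 8.93 ± 3.28 in sex-reversed and 10.70 ± 0.70 in normal testis (SD, n = 3 each). For A it was -0.64, with an interval of -2.69 to 1.41 and an adjusted p of 0.999 in limma. Group means of A were 7.58 ± 2.04 in sex-reversed and 8.22 ± 0.07 in normal testis. Without sex-reversed replicate 3 both differences turned to the other side, to 0.12 (interval -0.96 to 1.19) for B and 0.53 (interval -0.06 to 1.12) for A. In that fit 0 of the 11 member probe sets passed, beside 0.0522% of all.

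The 2 probe sets shared the low array and little else. Their Pearson correlation was 0.96 over the 6 arrays and 0.07 over the 5 arrays other than sex-reversed replicate 3. They belong to 1 gene on the same arrays, so the second is a repeat reading and not a further sample. Among the normal arrays B spanned 9.96 to 11.34 while A stayed between 8.14 and 8.26, and B was lowest in normal replicate 1.

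**Figure D2:**
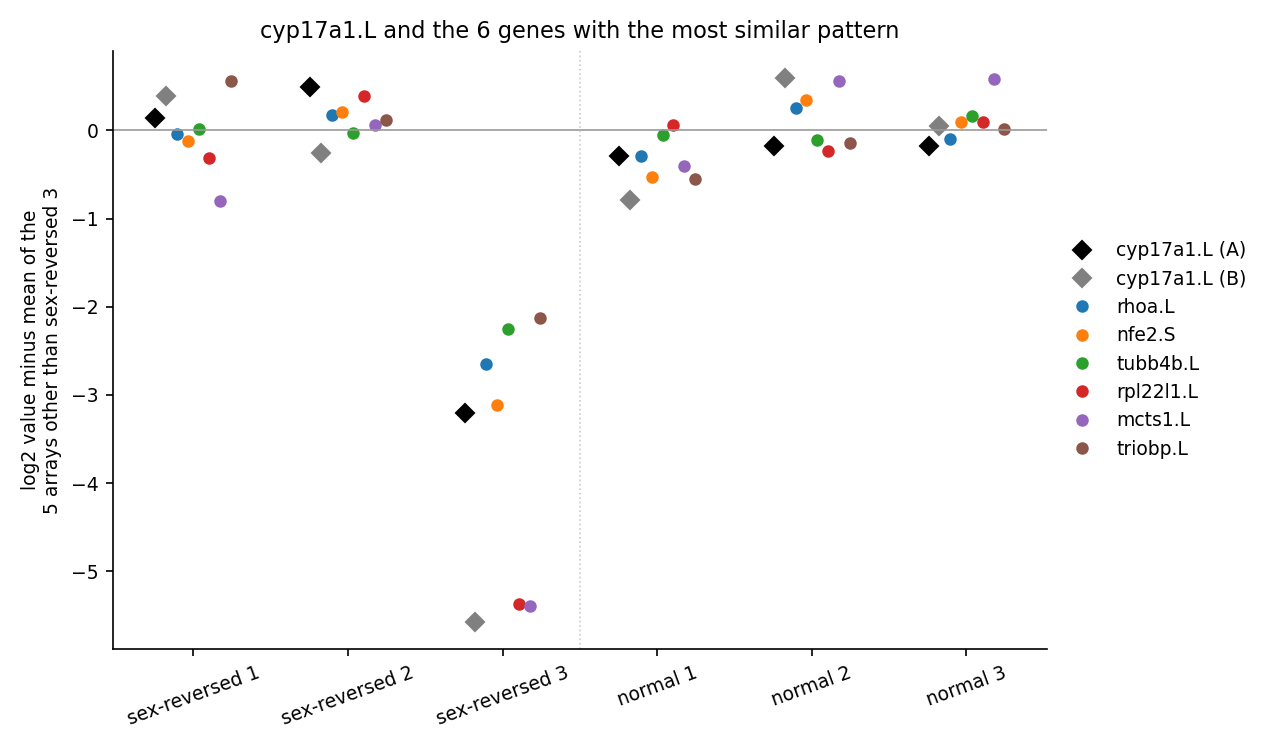
Log2 value minus the mean of the 5 arrays other than sex-reversed replicate 3 (vertical axis) for both cyp17a1.L probe sets (diamonds) and the 6 named probe sets most correlated with their mean (circles), with sex-reversed arrays on the left and normal arrays on the right. In sex-reversed replicate 3 the 8 deviate from that mean by -2.12 (triobp.L) to -5.58 (cyp17a1.L B). Values on the other arrays centre on 0 by construction, since their own mean was subtracted.

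Drops of this kind were rare on every array. In sex-reversed replicate 3, 15 probe sets of 11485 (0.131%) lay at least 2 log2 units below all other arrays, and both probe sets of cyp17a1.L were among them, B at rank 2 and A at rank 9 by size of the gap. The number was 8 and 9 in sex-reversed replicates 1 and 2, and 8, 30 and 15 in normal replicates 1, 2 and 3. Of the other 9 member probe sets, 0 had such a gap on any array. Over all arrays 0.74% of probe sets had one.

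The genes whose pattern over the 6 arrays was most like the mean of the cyp17a1.L probe sets, out of 601 candidates with a range of at least 2, were rhoa.L, nfe2.S, tubb4b.L, rpl22l1.L, mcts1.L and triobp.L. Their Pearson correlations ran from 0.994 for rhoa.L, a small GTPase gene, to 0.961 for triobp.L, an actin-binding protein gene. All 6 were lowest in sex-reversed replicate 3, which largely follows from how they were chosen. The ribosomal protein gene rpl22l1.L read 10.65, 11.35 and 5.59 in sex-reversed testis, against 11.02, 10.73 and 11.06 in normal testis. The tubulin gene tubb4b.L read 13.06, 13.02 and 10.79 in sex-reversed testis, against 12.94 to 13.21 in normal testis. Without sex-reversed replicate 3 the correlation with cyp17a1.L over 5 arrays was -0.34 for rpl22l1.L, -0.06 for tubb4b.L and 0.12 for mcts1.L, so that their likeness rested on that array. It was 0.80, 0.77 and 0.82 for rhoa.L, nfe2.S and triobp.L. These 3 were also picked for likeness, and the cyp17a1.L probe sets themselves correlated at only 0.07 over the 5 arrays. Other probe sets or second copies were read for nfe2, mcts1 and tubb4b only, and did not share the drop. In sex-reversed replicate 3, 3 more of nfe2.S deviated by -0.28 to 0.22, and mcts1.S by -0.21 against -5.39 for mcts1.L. The 3 of nfe2.S read only 2.72 to 4.48 over the arrays, too near the lowest values to show a fall like the -3.12 of the first. The deviation of tubb4b.S was 0.74, with normal replicate 1 low at 7.55 and sex-reversed replicate 3 at 10.64. For rhoa, rpl22l1 and triobp there was no other probe set with a single symbol to compare.

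The steroid reductase genes did not follow cyp17a1.L. SRD5A1 reduces testosterone to dihydrotestosterone. Its gene srd5a1.S read 7.68, 8.04 and 7.95 in sex-reversed testis, against 8.03, 7.58 and 7.22 in normal testis. The groups overlapped through normal replicate 1, and the log2 difference was 0.28 (95% interval -0.34 to 0.90). It ranged from 0.09 without normal replicate 3 to 0.49 without normal replicate 1.

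SRD5A3 is known in mammals mainly for reducing polyprenol to dolichol for protein glycosylation, and can also reduce steroids. Its gene srd5a3.S read 9.44, 8.99 and 10.26 in sex-reversed testis, against 9.89, 9.89 and 9.98 in normal testis. The normal arrays were tightly grouped (SD 0.05), and the sex-reversed ones lay on both sides of them. Sex-reversed replicate 3, the low array of cyp17a1.L, was the highest of all for srd5a3.S. The log2 difference was -0.36 (95% interval -1.13 to 0.41). Without that array it was -0.70 (interval -1.31 to -0.09) and both remaining sex-reversed arrays lay below all normal ones, with an adjusted p of 0.828 in limma. Without sex-reversed replicate 2 it was -0.07.

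HSD3B7 belongs to the 3-beta-hydroxysteroid dehydrogenase family, and in mammals it acts on hydroxylated cholesterol on the way to bile acids rather than on sex steroids. Its gene hsd3b7.L read 5.58, 5.01 and 5.45 in sex-reversed testis, against 5.05, 5.72 and 5.89 in normal testis, close to the array medians of 5.25 to 5.31. The groups overlapped widely and the log2 difference was -0.21 (95% interval -0.89 to 0.47).

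The electron carriers of the mitochondrial P450 enzymes differed little in their group means. Ferredoxin, the product of fdx1.L, read 7.87, 7.82 and 8.20 in sex-reversed testis, against 7.95, 8.29 and 8.11 in normal testis. With a pooled SD of 0.19 it was the least variable member, lower than all but 15.2% of probe sets in the table. Its log2 difference of -0.16 had the narrowest 95% interval of the 11, -0.67 to 0.35. Ferredoxin reductase, which hands electrons to ferredoxin, is encoded by fdxr.L. It read 7.05, 6.81 and 7.29 in sex-reversed testis, against 7.20, 6.77 and 7.68 in normal testis, a log2 difference of -0.17 (95% interval -0.83 to 0.50). Its pooled SD of 0.36 lay near the table's median, and without normal replicate 3 the difference was 0.06. In sex-reversed replicate 3 fdx1.L and fdxr.L were each 0.19 above the mean of the other arrays, while cyp17a1.L was far below its own.

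The cholesterol carriers had differences of opposite sign, and neither passed. STARD3 is an endosomal protein that transfers cholesterol between membranes. Its gene stard3.S read 5.69, 6.02 and 5.15 in sex-reversed testis, against 6.50, 6.08 and 5.76 in normal testis. Sex-reversed replicate 3 was again the lowest array, by 0.53, and the groups overlapped because sex-reversed replicate 2 exceeded normal replicate 3. The log2 difference was -0.49 (95% interval -1.21 to 0.22; unadjusted p = 0.147, adjusted p = 0.997, limma), and -0.26 without sex-reversed replicate 3. STARD4 is a soluble carrier of cholesterol in the cytosol. Its gene stard4.L read 4.67, 4.59 and 4.14 in sex-reversed testis, against 4.01, 4.07 and 4.55 in normal testis, which differed by 0.26 (95% interval -0.34 to 0.85).

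NR5A2, also called LRH-1, is a nuclear receptor that can switch on genes of steroid and bile acid synthesis, and it is a close relative of NR5A1, the main regulator of steroid-making cells. Both of its copies gave low signal. The L copy read 3.53, 4.66 and 3.25 in sex-reversed testis, against 3.28, 3.54 and 3.80 in normal testis, and the S copy read 2.67, 3.38 and 3.20 in sex-reversed testis, against 2.76, 3.19 and 3.18 in normal testis. The lowest value on any array lay between 1.93 and 2.09, and no detection call was at hand, so these readings do not show whether either copy was expressed. Their log2 differences were 0.27 (95% interval -0.62 to 1.16) for nr5a2.L and 0.04 (-0.58 to 0.65) for nr5a2.S. Sex-reversed replicate 2 was the highest array for both copies, and without it the differences were -0.15 and -0.11.

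**Figure D3:**
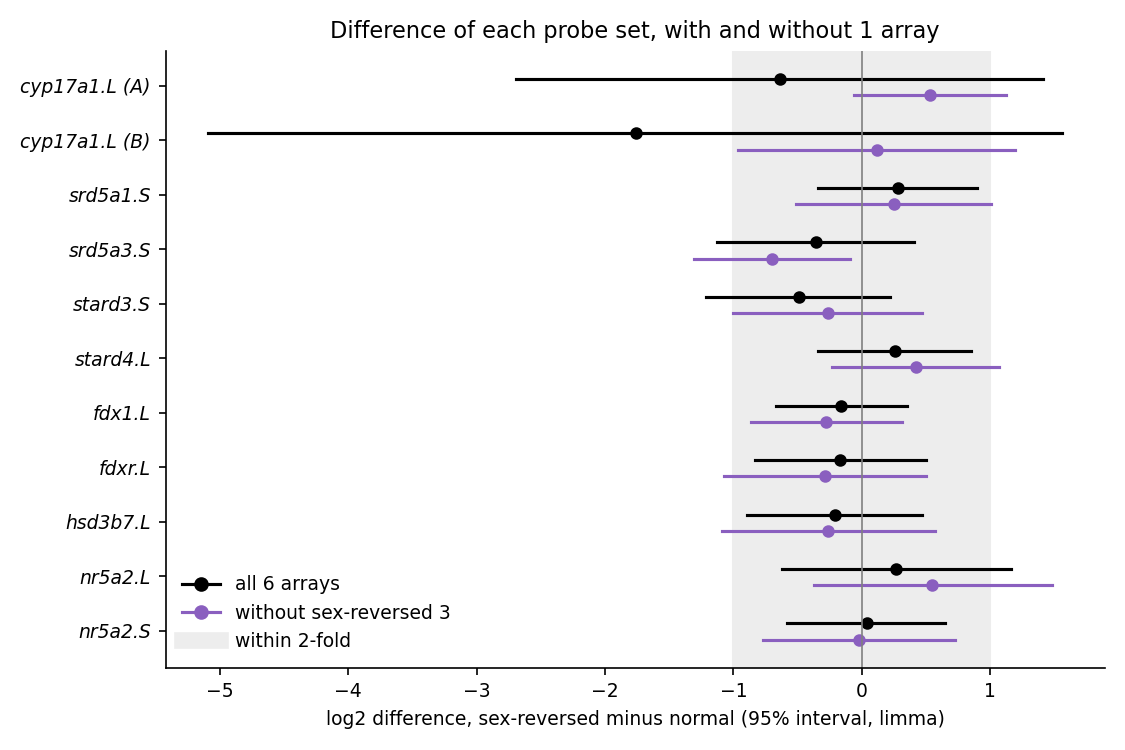
Log2 difference, sex-reversed minus normal (horizontal axis), of each probe set with its 95% interval from limma, over all 6 arrays in black and without sex-reversed replicate 3 in purple. Grey shading marks differences within 2-fold. Leaving out the array moves cyp17a1.L B to 0.12 and A to 0.53, and srd5a3.S to -0.70.

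The spread of the members between replicates was near that of the table, except for cyp17a1.L. Pooled within-group SDs of the 9 probe sets of other genes ran from 0.19 to 0.56, beside a median of 0.34 over all probe sets. For cyp17a1.L they were 1.44 (A) and 2.37 (B), above 98.7% and 99.9% of the table. In sex-reversed replicate 3, 4 of the 11 member probe sets were the lowest of the 6 arrays (both of cyp17a1.L, stard3.S and nr5a2.L) and 1 (srd5a3.S) was the highest. For nr5a2.L the gap was only 0.03. Sex-reversed replicate 2 was the lowest array for 3 member probe sets and the highest for 4.

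Further genes of the pathway were read from 6 lists that cover steroid-forming enzymes, electron transfer, cholesterol supply, cholesterol synthesis, regulators of steroid synthesis and steroid receptors. They held 59 probe sets that were no member, and 0 passed in either direction (limma). At an unadjusted p of 0.05 there were 3 (iscu.L, vdac1.S and fshr.L), beside the 4.42% of all probe sets. The 59 had 26 higher and 33 lower means, with a median difference of -0.03, and 38 had intervals within 2-fold. In 2 (iscu.L and hmgcs1.L) all sex-reversed arrays were above all normal ones, beside 5.37% of all probe sets, and in 4 (vdac1.S, fshr.L, dhcr7.S and prkacb.S) below, beside 4.26%.

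The enzyme list covered little of the pathway, since 26 of its 37 genes were not read. Its probe sets other than the members were of akr1c2.L, hsd17b10.L, por.L, sult1e1.L and sult2b1.S. Of these 7 probe sets 1 was higher and 6 were lower, with differences from -0.29 to 0.23. The P450 reductase gene por.L, whose product feeds electrons to CYP17A1, differed by -0.02, and by -0.09 in a second probe set. For cholesterol supply 6 of 14 were higher and 8 lower. There apoe.L, an apolipoprotein gene, read 3.92, 4.23 and 3.20 in sex-reversed testis, against 5.62, 3.88 and 5.02 in normal testis, a difference of -1.06 with an interval of -2.16 to 0.05. The mitochondrial channel gene vdac1.S read 4.76, 5.19 and 4.80 in sex-reversed testis, against 5.35, 5.56 and 5.69 in normal testis, with no overlap (difference -0.61, adjusted p = 0.997, limma). A second probe set of vdac1.S differed by -0.23 and its groups overlapped.

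Among electron transfer genes, iscu.L had the largest difference among the 59 probe sets. Its product is the scaffold on which iron-sulfur clusters, such as that of ferredoxin, are built. It read 9.53, 9.62 and 9.37 in sex-reversed testis, against 8.13, 8.28 and 8.41 in normal testis, so that each sex-reversed array was above each normal one. The log2 difference was 1.24 (95% interval 0.76 to 1.71), it stayed between 1.16 and 1.30 with any 1 array left out, and its adjusted p was 0.720 in limma. The other electron transfer genes named by size were cyb5r3.L, a cytochrome b5 reductase gene (0.61), and the glutaredoxin gene glrx5.L (0.55), and the groups overlapped in both.

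Cholesterol synthesis genes were 5 higher and 5 lower. The synthase gene hmgcs1.L differed by 0.27, 0.42 and -0.09 in its 3 probe sets, and its groups were apart only in the first. The gene dhcr7.S, for the last reductase of the pathway, differed by -0.33. Regulators were 4 higher and 9 lower, with cited2.L, a transcriptional co-regulator gene, at -0.70 and prkar1a.L, for a regulatory subunit of protein kinase A, at -0.45. Other probe sets of prkar1a.L differed by 0.15 and -0.08. The gene fshr.L for the receptor of follicle-stimulating hormone read 4.08, 3.85 and 3.83 in sex-reversed testis, against 4.73, 4.50 and 4.47 in normal testis. That probe set differed by -0.65, while the other probe set of fshr.L differed by 0.10 and its groups overlapped. Steroid receptor genes were 5 higher and 4 lower, between -0.19 for pgrmc1.L, a membrane progesterone receptor component, and 0.32 for nr3c2.L, the mineralocorticoid receptor gene. The estrogen receptor gene esr1.L differed by -0.15, and its second copy esr1.S by 0.08 at a median percentile of 5.1.

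**Figure D4:**
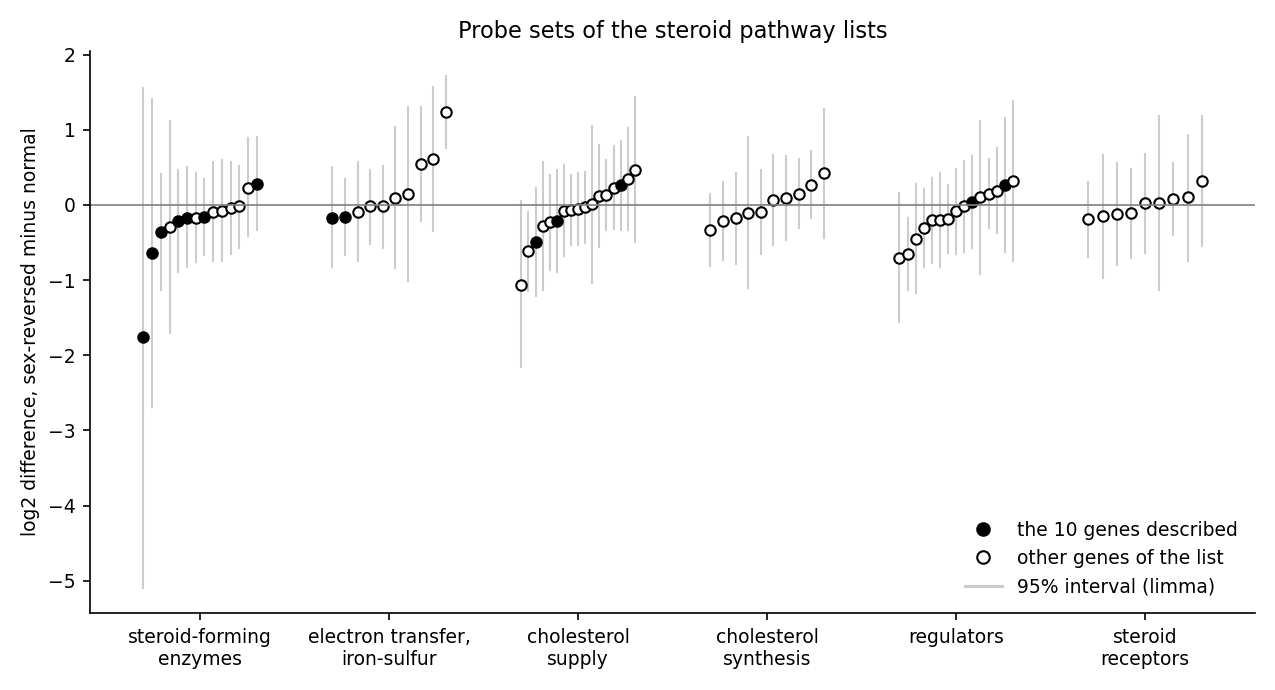
Log2 difference, sex-reversed minus normal (vertical axis), of every probe set in 6 lists of the steroid pathway, with 95% intervals from limma; filled points are the 10 genes described and open points are other genes. List medians run from -0.16 for steroid-forming enzymes, where 12 of 14 probe sets are lower, to 0.04 for electron transfer. The extremes are iscu.L at 1.24 and cyp17a1.L B at -1.76.

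The tissue was checked against marker genes. Of 16 germ cell probe sets, 9 had a median percentile above 50 within their arrays, led by ddx4.L and dazl.L at 99.7 and 99.5. Among the 9 were also the sperm genes tekt4.S and spag6.L, at 97.0 and 91.8. Another 6 lay below percentile 25, down to odf3.S at 4.3, and these included other sperm genes, ropn1l.L, meig1.S and odf3.L. The list also counted sp5.S, at 8.9, a transcription factor gene and not a sperm gene. The list's mean log2 level was 6.30 to 6.43 in sex-reversed and 5.90 to 6.70 in normal testis. Of 10 Leydig cell genes only cyp17a1.L and fdx1.L were read, so the Leydig label rests on few genes, and insl3, lhcgr, star and cyp11a1 were not analysed here.

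The mean levels of 3 marker lists did not overlap between the groups. Such a split is not rare for single probe sets with 3 arrays per group, and 9.63% of all had one. No share was computed for means of lists, so the 9.63% is no measure of how ordinary these splits are. Smooth muscle markers had 7.32 to 7.59 in sex-reversed and 6.89 to 7.12 in normal testis over 13 probe sets. Interrenal markers, from the frog's adrenal tissue, had 4.70 to 4.86 in sex-reversed and 4.53 to 4.68 in normal testis over 6 probe sets. These were 3 higher and 3 lower, and 0 had groups fully apart. Only chga, npy, slc18a1 and slc18a2 were read, 4 of the 14 genes listed. The listed steroid-forming genes cyp11b1, cyp11b2 and cyp21a2 were not, so these levels do not speak of steroid-making adrenal cells. The mean level of Sertoli cell markers was lower, at 4.31 to 4.54 in sex-reversed and 4.55 to 4.79 in normal testis over 8 probe sets. Of these, 3 were higher and 5 lower, and 4 had a median percentile below 25. In 1 probe set each of fshr.L and gja1.L, both lower, the groups did not overlap. In the other probe set of each gene they did. The levels of the other marker lists overlapped. Kidney markers had 3.60 to 3.88 in sex-reversed and 3.64 to 3.96 in normal testis over 8 probe sets. Fat body markers had 5.05 to 5.29 in sex-reversed and 5.0 to 5.64 in normal testis over 10, and blood markers had 4.26 to 4.42 in sex-reversed and 4.32 to 4.71 in normal testis over 18. The part of these cells in the values above was not tested. By the same measure, members included, the steroid-forming enzyme list did not overlap either. Its levels were 6.53 to 6.94 in sex-reversed and 6.97 to 7.14 in normal testis. Cholesterol supply (5.61 to 5.66 against 5.67 to 5.81) and regulators (5.87 to 5.97 against 6.0 to 6.05) were likewise lower in sex-reversed testis. The remaining pathway lists overlapped. The splits of the enzyme and cholesterol supply lists depended on the members. With the members left out, enzyme levels were 5.69 to 5.99 in sex-reversed and 5.71 to 6.01 in normal testis. Cholesterol supply then also overlapped (5.73 to 5.76 against 5.75 to 5.9). Regulator levels were 6.18 to 6.4 against 6.4 to 6.51, where the nearest arrays were equal only after rounding. The split of the regulators was therefore not shown to depend on the members.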

How the data were processed

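Biotin-labelled cRNA from hybrid testes was read on Affymetrix arrays of 1 colour, per the labels' protocols. The authors deposited log2 values, which come from RMA according to the submitters' processing notes. RMA includes quantile normalization, so a shift shared by most genes is removed. The log2 scale was read from the range of the values. For the RMA version, chip definition and choice of rows the sources used here give nothing. Probes made for X. laevis may bind X. muelleri transcripts less well. There were 0 columns of other samples.

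Of 11485 probe sets, 6798 carried 1 symbol in the platform annotation, 110 several and 4577 none, and only single symbols were used. No sequence was used. Each probe set was tested as sex-reversed minus normal with limma 3.58.1 (lmFit, eBayes) in R 4.3.3, two-sided, with adjustment over the whole table at 0.05 and no filter on low values. The fit was tested on simulated data with independent normal noise from its own variances. That test therefore does not cover drops in 1 array, as for cyp17a1.L, or correlation between genes. Precision is limited by 3 arrays per group. Percentiles are ranks within an array.

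The members and lists were chosen with earlier results of these data known. Named were all members, the 3 probe sets of each pathway list with the largest difference, and the 6 single-symbol probe sets of range 2 or more that correlated best with cyp17a1.L. Further genes (por.L and the other enzymes that were no member, prkacb.S, esr1.S, tissue markers, second probe sets) were named after their values were seen. Alternatives were the replicate block, other normalizations, filters at the median and 25th percentile of the mean level, other variance models, array weights, each array left out, a threshold of 0.10, means over the probe sets of a gene and ranks among single-symbol probe sets.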

Additional observations from a re-analysis of the deposited data

How the results depend on the processing

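No alternative called a member: 0 of 11 member probe sets passed in any of the 15 other fits or at an adjusted p of 0.10, and all of their differences kept their direction outside the fits that leave out 1 array. Filters on low values kept 8 (above the median level) and 9 (above the 25th percentile) of the 11. Over the whole table the count was 0 in the reported fit (508 at an unadjusted p of 0.05 in limma). It was 1 above the median level and 1 after a further quantile normalization, 2 with array weights and 2 with median centring, and 0 to 6 with 1 array left out. With 1 array left out, cyp17a1.L B ranged from -2.87 to 0.12 and A from -1.32 to 0.53. Both were positive only without sex-reversed replicate 3. Differences also changed sign for fdxr.L (-0.39 to 0.06), nr5a2.L (-0.15 to 0.55) and nr5a2.S (-0.11 to 0.24), and each of the 11 moved by over 1.5 times in at least 1 such fit. Same-numbered arrays correlated at -0.007, -0.025 and 0.139 in their deviations over probe sets, and differently numbered ones at -0.16 to 0.152. Deviations taken within groups of 3 constrain each other, so these values cannot settle whether the replicate numbers pair the samples. With the replicate block there were 0 calls, 0 of them members, and the differences of cyp17a1.L were -1.76 and -0.64. No signal over background was given, which limits what the low values of nr5a2 show.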
